A study of Mus musculus with 2 samples.

Results

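The 10 genes described here, Pecam1, Cdh5, Cldn5, Esam, Emcn, Egfl7, Erg, Sox17, Sox18 and Aqp1, are used to recognise endothelial cells, the inner lining of blood vessels. They were taken by gene symbol from a GENCODE annotation of 55536 genes, and each symbol matched 1 gene. Their RNA was measured by total RNA-seq in hearts of male B6CASTF1/J mice, which are first-generation hybrids of a B6 and a CAST parent strain, at an age of 36 days. The hearts carried no transgene or treatment in the labels and formed 1 group with 2 biological replicates, replicate 1 and replicate 2. Each library was stranded, ribosomal RNA was reduced, and 300 ng of RNA went in together with ERCC spike-ins, a set of synthetic control RNAs. The 2 biosamples carry the same donor entry, and whether they come from 2 animals is not given. They are called 2 hearts below for short, and the spread between them may be technical in part or in whole. No 2 conditions were compared. The libraries held 41846508 and 42481559 expected counts in replicates 1 and 2. Whole heart tissue was used, so a lower level in bulk RNA cannot be told apart between fewer endothelial cells and less RNA per endothelial cell.

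Endothelial cells of the heart form a dense capillary network between the muscle fibres, the lining of arteries, veins and lymphatics, and the endocardium of the chambers. They hold together through adherens junctions built on VE-cadherin (Cdh5), tight junctions that contain claudin-5 (Cldn5), and the immunoglobulin-type adhesion proteins PECAM-1 (Pecam1) and ESAM (Esam). Their identity is kept by transcription factors of the ETS class, among them ERG, and of the SOXF class, which holds SOX7, SOX17 and SOX18. Endomucin (Emcn) is a sialic-acid-rich mucin of the endothelial surface, EGFL7 is a protein secreted by endothelial cells, and aquaporin-1 (Aqp1) is a water channel that red blood cells and mesothelium carry too.

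Egfl7 lies on chromosome 2 from 26580014 to 26593120 (plus strand, mm10) and carries the endothelial microRNA miR-126 in an intron. Its 3p mature sequence from RefSeq (build GRCm38.p6) is shown with the seed, bases 2 to 8, in capitals, because the locus makes this microRNA beside the Egfl7 messenger.
miR-126a-3p (chr2:26591402-26591423, + strand): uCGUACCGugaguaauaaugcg
The precursor entries Mir126a and Mir126b were at 0 in the gene quantification with an effective length of 0, so these libraries do not measure the microRNA.

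RefSeq windows of the 250 bases before an annotated start were matched for 5 of the 10 genes, 9 windows in all. The 3 windows of Egfl7 and the 3 of Erg are shown because the RNA of these 2 genes was placed at different starts by the 2 quantifications described below. Capitals mark AGGAAG on either strand (CTTCCT on the opposite one), a core found in many ETS-factor sites, and each line runs 5′ to 3′ on the gene's strand up to the base before the start.
Egfl7 start 26581083 (chr2:26580833-26581082, + strand): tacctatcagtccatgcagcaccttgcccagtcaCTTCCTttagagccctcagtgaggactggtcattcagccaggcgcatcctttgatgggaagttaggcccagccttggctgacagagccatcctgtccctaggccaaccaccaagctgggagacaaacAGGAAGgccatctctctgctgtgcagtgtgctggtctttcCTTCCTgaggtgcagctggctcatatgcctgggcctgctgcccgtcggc
Egfl7 start 26583865 (chr2:26583615-26583864, + strand): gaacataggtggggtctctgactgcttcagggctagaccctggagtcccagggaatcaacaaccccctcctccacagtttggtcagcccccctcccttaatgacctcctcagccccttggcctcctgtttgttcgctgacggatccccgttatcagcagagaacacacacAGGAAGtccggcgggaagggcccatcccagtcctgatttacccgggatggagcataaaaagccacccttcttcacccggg
Egfl7 start 26586636 (chr2:26586386-26586635, + strand): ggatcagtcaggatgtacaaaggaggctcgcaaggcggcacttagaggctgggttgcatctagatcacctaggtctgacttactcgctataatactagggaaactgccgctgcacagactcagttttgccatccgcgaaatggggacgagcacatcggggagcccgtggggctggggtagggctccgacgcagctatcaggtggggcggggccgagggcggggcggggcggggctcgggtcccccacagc
Erg start 95586593 (chr16:95586594-95586843, - strand): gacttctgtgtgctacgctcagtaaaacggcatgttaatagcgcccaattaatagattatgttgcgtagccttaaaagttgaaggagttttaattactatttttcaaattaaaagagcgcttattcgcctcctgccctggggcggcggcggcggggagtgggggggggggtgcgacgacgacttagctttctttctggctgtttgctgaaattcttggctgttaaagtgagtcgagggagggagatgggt
Erg start 95530365 (chr16:95530366-95530615, - strand): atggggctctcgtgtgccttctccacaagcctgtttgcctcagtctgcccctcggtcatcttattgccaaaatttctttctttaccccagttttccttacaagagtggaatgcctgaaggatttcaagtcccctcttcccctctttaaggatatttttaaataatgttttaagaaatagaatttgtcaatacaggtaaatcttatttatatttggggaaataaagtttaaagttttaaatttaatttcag
Erg start 95459348 (chr16:95459349-95459598, - strand): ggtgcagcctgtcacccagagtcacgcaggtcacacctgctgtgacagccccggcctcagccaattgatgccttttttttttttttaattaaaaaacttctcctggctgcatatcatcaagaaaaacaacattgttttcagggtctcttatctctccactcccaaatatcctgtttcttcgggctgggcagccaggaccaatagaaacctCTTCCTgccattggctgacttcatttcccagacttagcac
The Egfl7 window at 26581083 held 3 AGGAAG matches, at -216, -89 and -49 from the start, the window at 26583865 held 1 at -80, and the window at 26586636 held 0. For Erg, the window at 95459348 held 1 match at -40, and the other two held 0. Of all 32851 RefSeq windows of this length, 29.5% held this motif, so a match is a description of the letters only. A TATAAA match, present in 12.4% of windows, was found on the opposite strand (TTTATA as printed) at -46 of the Erg start 95530365 and on neither strand in any other window of these genes. ACAAT, a core of SOX-factor sites, was present on either strand in 27.7% of all windows and occurred once each in the Emcn window and in the Erg window at 95459348. The windows of Aqp1 and Cldn5 held 1 and 0 AGGAAG matches, and the Emcn window held 2.

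All 10 genes reached 1 TPM in both hearts, as did 10943 of 22015 nuclear protein-coding genes. TPM, the share of transcript molecules scaled to a fixed library sum, is a level per unit of transcript length, so it can be compared between genes. The 10 genes together held 499.87 TPM in replicate 1 and 500.78 TPM in replicate 2, or 0.132% ± 0.00056 of nuclear protein-coding TPM (SD, n = 2). Aqp1 alone made up 46.7% of that sum. Without it the sum was 251.52 TPM in replicate 1 and 281.45 TPM in replicate 2.

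Among the junction genes, Cdh5 (chromosome 8, 104101625 to 104144511, plus strand), the adherens-junction cadherin of endothelium, stood at 55.8 TPM in replicate 1 and 58.7 TPM in replicate 2. Pecam1 (chromosome 11, 106654217 to 106750628, minus strand), an adhesion receptor at endothelial cell contacts that platelets and leukocytes also carry, stood at 53.4 and 51.2 TPM in replicates 1 and 2. The 2 hearts were close together for both genes, with means of 57.2 ± 2.04 TPM for Cdh5 and 52.3 ± 1.56 TPM for Pecam1 (SD, n = 2). Esam (chromosome 9, 37528078 to 37538319, plus strand), an adhesion protein of endothelial junctions and platelets, had 31.25 TPM in replicate 1 and 29.25 TPM in replicate 2. Cldn5 (chromosome 16, 18776847 to 18778262, plus strand), a single-exon gene for the main endothelial claudin, had 13.4 TPM in replicate 1 and 16.9 TPM in replicate 2. The tight-junction gene thus lay below the 3 other junction genes in both hearts.

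Egfl7 had 45.3 TPM in replicate 1 and 67.4 TPM in replicate 2, a wider spread than for any junction gene. Emcn (chromosome 3, 137341067 to 137432185, plus strand) had 18.8 TPM in replicate 1 and 18.3 TPM in replicate 2, the smallest spread of the 10 genes with a mean of 18.55 ± 0.382 TPM (SD, n = 2).

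Among the transcription factors, Sox18 (chromosome 2, 181669836 to 181671640, minus strand), a SOXF factor of blood and lymphatic vessel formation, had 14.6 TPM in replicate 1 and 23.8 TPM in replicate 2. Erg (chromosome 16, 95359169 to 95586593, minus strand), an ETS factor that maintains endothelial gene expression, had 12.8 TPM in replicate 1 and 11.9 TPM in replicate 2. Sox17 (chromosome 1, 4490931 to 4497354, minus strand), a SOXF factor known for its role in arterial endothelium, had 6.14 TPM in replicate 1 and 4.10 TPM in replicate 2. Erg hardly differed between the hearts, while the 2 SOX genes lay apart in opposite directions.

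Aqp1 (chromosome 6, 55336432 to 55348555, plus strand) was the most abundant of the 10 genes at 248 TPM in replicate 1 and 219 TPM in replicate 2, and ranked 230 among nuclear protein-coding genes by mean TPM. The others ranked between 924, for Cdh5, and 7327, for Sox17.

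By mean TPM the order was Aqp1, Cdh5, Egfl7, Pecam1, Esam, Sox18, Emcn, Cldn5, Erg and Sox17. Aqp1 lay 4.09-fold above Cdh5, and its lower heart was above every value of the other genes. The values of Cdh5 and Egfl7 overlapped over the 2 hearts, as did those of Egfl7 and Pecam1 and those of Sox18 and Emcn, so these neighbours did not differ beyond their spread. Pecam1 lay 1.73-fold above Esam, Esam 1.58-fold above Sox18, and Erg 2.41-fold above Sox17, each without overlap. Emcn and Cldn5 (1.22-fold) and Cldn5 and Erg (1.23-fold) did not overlap either, though in both pairs the nearest values of the 2 genes lay within 1.5 TPM of each other. No test was made of these differences.

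**Figure D1:**
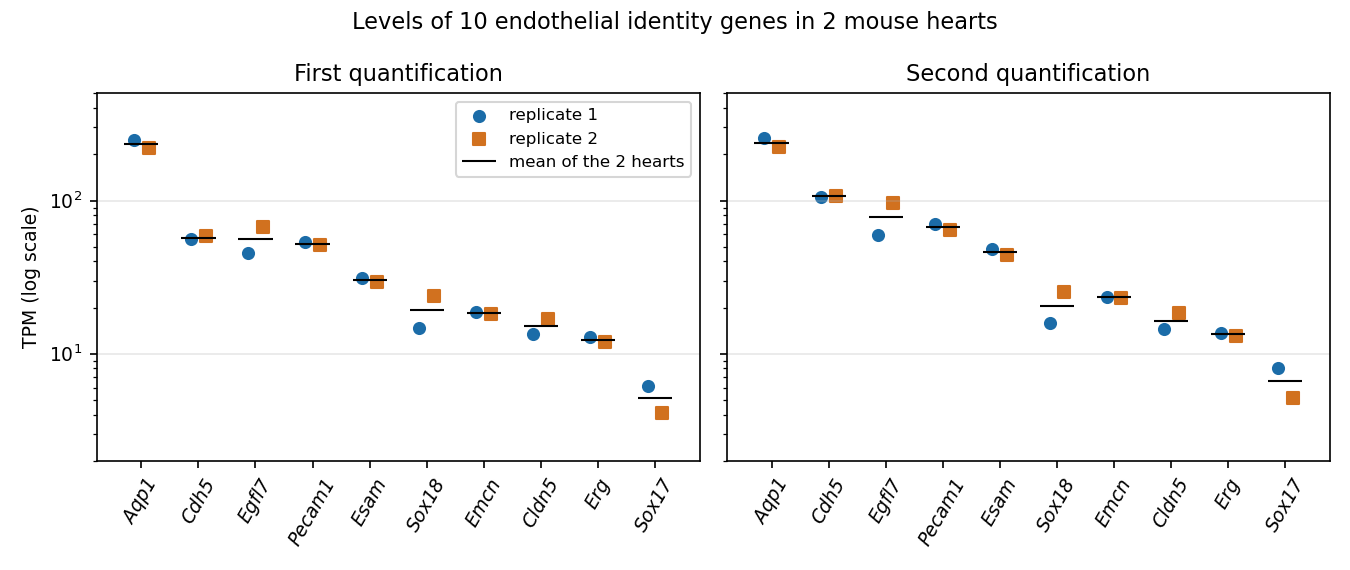
Each point is the TPM of 1 gene in 1 heart on a log axis (blue circle replicate 1, orange square replicate 2, black line their mean), with the first quantification on the left and the second on the right. Aqp1 stands at 248 and 219 TPM in the first, above all others, and Sox17 is lowest at 6.14 and 4.10 TPM.

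The difference between the 2 hearts was expressed as the log2 ratio of replicate 1 over replicate 2 of scaled expected counts, with an exact (Clopper-Pearson) 95% interval that covers counting error only. No test across hearts was made, because with 2 hearts the smallest p that an exact sign permutation allows is 0.5. Of the 10 genes, 7 had a ratio above 0, beside 49.9% of all genes with a mean count of 50 or more, and Cldn5, Egfl7 and Sox18 were higher in replicate 2. Cdh5, among the 7, was close to 0 and turned sign with library totals (-0.0052) and spike-in totals (-0.056) in place of the main scaling, as it did by TPM. None of the 10 genes was 2-fold or more apart, against 1.28% of the 12541 genes with a mean count of 50 or more, the minimum that all 10 genes passed. At 1.5-fold 2 of the 10 were apart, against 4.27% of these genes. Sox17 was the 1 gene of the 10 past 1.5-fold higher in replicate 1, a size that 2.58% of genes reached in that direction. Sox18 was the 1 gene past 1.5-fold higher in replicate 2, a size that 1.7% of genes reached in that direction. With 10 genes these shares are set by 1 gene each way. The median absolute log2 ratio was 0.19 over the 10 genes and 0.11 over all genes at that count. The median signed ratio was 0.11 over the 10 genes, beside -0.000795 over the 15749 genes with a mean count of 10 or more. Over the 10 genes it was 0.039 when scaled by spike-in totals and 0.072 in the second quantification.

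Sox18 had 748 expected counts in replicate 1 and 1222 in replicate 2, a log2 ratio of -0.66 (-0.80 to -0.53). Egfl7 had 1345 counts in replicate 1 and 2026 in replicate 2, a log2 ratio of -0.55 (-0.65 to -0.45). Sox17 had 324 counts in replicate 1 and 214 in replicate 2, a log2 ratio of 0.64 (0.39 to 0.90). Each of these 3 ratios lay outside the central 90% of genes, which ended at 0.39 on either side; ratios at least as large were seen for 3.29% of genes in the case of Sox18, 4.99% for Egfl7 and 3.53% for Sox17. Cldn5, with 595 counts in replicate 1 and 754 in replicate 2, had a log2 ratio of -0.30 (-0.45 to -0.14), a size reached by 15.8% of genes.

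Aqp1 had 21134 counts in replicate 1 and 18739 in replicate 2, a log2 ratio of 0.22 (0.19 to 0.25) that counting error does not cover but that 24.7% of genes reached. Pecam1 had a log2 ratio of 0.16 (0.11 to 0.22) and Esam one of 0.16 (0.065 to 0.26). The intervals of Emcn (0.12, -0.028 to 0.26), Erg (0.11, -0.021 to 0.24) and Cdh5 (0.018, -0.029 to 0.065) included 0. For Cdh5 90.4% of genes had a ratio at least as large, so it was among the most even genes between the 2 libraries. The second quantification gave the same direction for all 10 genes.

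**Figure D2:**
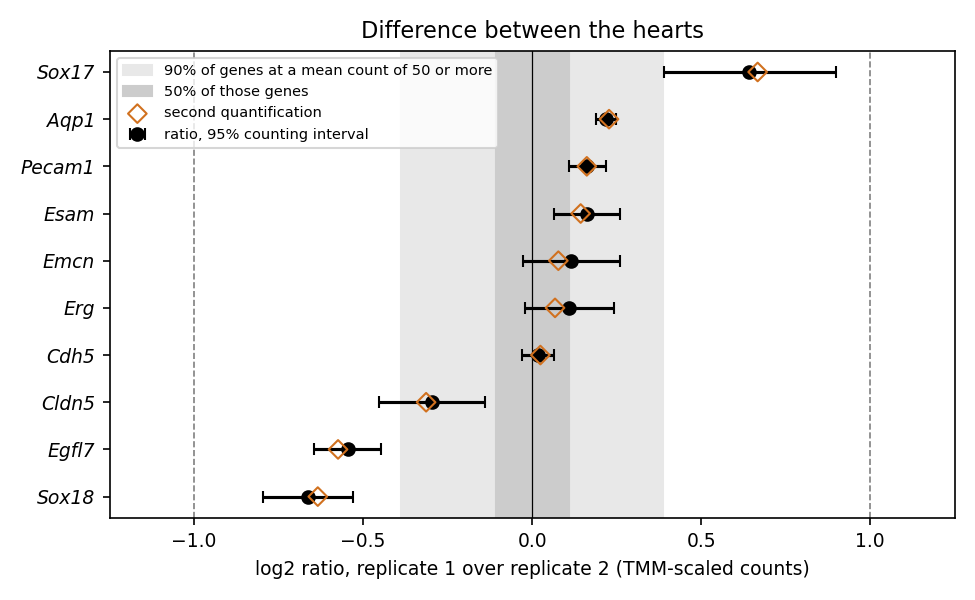
Log2 ratio of replicate 1 over replicate 2 for each gene (black circle, with the 95% counting interval as a bar) and in the second quantification (open diamond); the grey bands hold the central 50% and 90% of genes with a mean count of 50 or more, and dashed lines mark 2-fold. Sox17, Egfl7 and Sox18 lie outside the wider band, and no gene reaches a dashed line.

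Ratios of TPM between 2 genes within a heart do not depend on how the libraries are scaled. The ratio of Egfl7 to Cdh5 was 0.812 in replicate 1 and 1.15 in replicate 2, that of Sox18 to Cdh5 was 0.262 in replicate 1 and 0.405 in replicate 2, and that of Sox17 to Cdh5 was 0.110 in replicate 1 and 0.0699 in replicate 2. Relative to Pecam1, Emcn stood at 0.353 and 0.357 in replicates 1 and 2, Esam at 0.586 and 0.572, and Erg at 0.240 and 0.232. In replicates 1 and 2, Cdh5 stood at 1.05 and 1.15 relative to Pecam1, Aqp1 at 4.65 and 4.29, and Cldn5 at 0.251 and 0.331. Egfl7 stood at 0.849 and 1.32 relative to Pecam1, Sox18 at 0.274 and 0.465, and Sox17 at 0.115 and 0.0801. Esam, Emcn and Erg thus kept their proportions to Pecam1 most closely, whereas Egfl7 and the SOX genes did not keep theirs to Cdh5 or to Pecam1.

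The first quantification also deposits an interval for each TPM, of a level not given in the sources used here and set around a posterior mean. These intervals did not overlap between the hearts for 5 of the 10 genes, namely Cldn5, Egfl7, Sox17, Sox18 and Aqp1, against 12.3% of the 12247 genes with a mean TPM of 1 or more. For Aqp1 the intervals (240 to 247 TPM in replicate 1, 212 to 218 TPM in replicate 2) lie below the gene's own TPM of 248 and 219.

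SOXF genes differed between the hearts gene by gene. Sox7, the third SOXF gene, had 5.77 TPM in replicate 1 and 9.85 TPM in replicate 2, a log2 ratio of -0.73, in the direction of Sox18. Summed TPM of the 3 genes was 26.5 in replicate 1 and 37.7 in replicate 2. Sox17 made up 23.2% of that sum in replicate 1 and 10.9% in replicate 2, and Sox18 made up 55.1% and 63.0%. Sox18 was first of 20 SOX genes with 30.6% ± 5.30 of their TPM, and Sox17 was sixth with 8.61% ± 3.79 (SD, n = 2). Between them lay Sox6 (9.56 and 8.84 TPM in replicates 1 and 2), Sox4 (6.86 and 10.7 TPM), Sox7 and Sox13 (6.16 and 6.18 TPM), and Sox12 (3.24 and 3.01 TPM) was the remaining SOX gene at 1 TPM or more in both hearts.

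Of the 8 Sox17 transcripts, Sox17-208 differed most between the hearts. Sox17-208, which starts at 4496757 and has a coding sequence of 873 nt, against 1257 nt in Sox17-201 and Sox17-202, had 2.71 TPM in replicate 1 and 0.77 TPM in replicate 2. Its deposited intervals (2.04 to 3.23 TPM in replicate 1, 0.330 to 1.26 TPM in replicate 2) did not overlap. It held 44.1% of Sox17 TPM in replicate 1 and 18.7% in replicate 2, and on its 171 and 48.6 expected counts the log2 ratio was 1.83 (1.38 to 2.34). This interval and the next take the reads assigned to each transcript as given, so they leave out the error of that assignment. The 7 other transcripts together had 3.43 TPM in replicate 1 and 3.32 TPM in replicate 2, a log2 ratio of -0.06 (-0.39 to 0.26), in a split chosen after the values were seen. That sum joins opposite differences, with Sox17-204 higher in replicate 1 (1.77 and 1.14 TPM in replicates 1 and 2). Sox17-202 (0.69 and 1.12 TPM) and Sox17-201 (0.51 and 0.61 TPM) were higher in replicate 2. The second quantification also gave Sox17-208 2.92 TPM in replicate 1 and 0.781 TPM in replicate 2, and 5.12 and 4.38 TPM for the other transcripts. The main transcript in the first quantification was Sox17-208 in replicate 1 and, at 27.8% of Sox17 TPM, Sox17-204 in replicate 2. Sox17-202 lay close behind at 27.4% in replicate 2, and the second quantification put Sox17-202 first in that heart at 32.5%. The start of Sox17-208 lies within Gm37587, a noncoding gene on the opposite strand, which had 2 counts in replicate 1 and 8 in replicate 2.

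**Figure D3:**
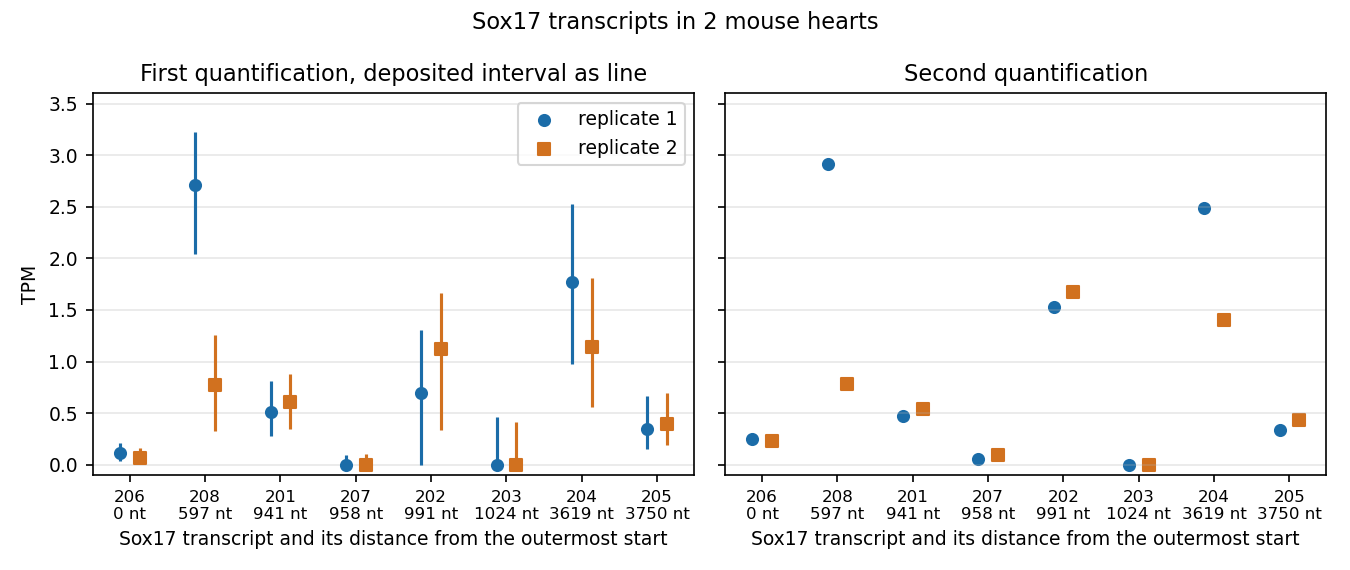
TPM of the 8 annotated Sox17 transcripts in each heart, ordered by the distance of their start from the outermost start, with the deposited interval as a line in the first quantification. Sox17-208 is the 1 transcript whose intervals do not overlap, at 2.71 TPM in replicate 1 and 0.77 TPM in replicate 2.

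The 10 genes have 58 annotated transcripts, and Aqp1, Cldn5 and Sox18 have 1 each. Of 30 transcripts at a mean of 1 TPM or more, 7 had deposited intervals that did not overlap between the hearts, against 8.45% of 23344 transcripts. They were Aqp1-201, Cldn5-201, Sox18-201, Sox17-208, Egfl7-202, Egfl7-206 and Egfl7-213. All belong to the 5 genes whose own intervals did not overlap, so the count of transcripts largely repeats the count of genes. Aqp1-201, Cldn5-201 and Sox18-201 are the only transcripts of their genes and carry the same intervals. The main transcript was the same in both hearts for 9 of the 10 genes. The exception, Sox17, was 1 of the 7 genes with several transcripts, and over all such genes with a mean TPM of 1 or more the main transcript differed in 11.4% of 10535.

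Egfl7 RNA was spread over many transcripts. The highest, Egfl7-202, held 28.5% of the gene's TPM in replicate 1 and 29.8% in replicate 2, with 12.9 and 20.1 TPM. Retained-intron, processed and nonsense-mediated-decay transcripts, 7 of its 19, held 43.6% in replicate 1 and 42.4% in replicate 2. The difference between the hearts was therefore not tied to 1 transcript, and Egfl7-202, the retained-intron transcript Egfl7-206 (6.11 and 9.23 TPM in replicates 1 and 2) and the retained-intron transcript Egfl7-213 (3.94 and 6.96 TPM) were each higher in replicate 2.

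The 2 quantifications placed Egfl7 and Erg RNA at different starts. The windows printed above are those of RefSeq starts, which need not be the same bases as the transcript starts given here. Transcripts that start at 26583864 to 26583905 held 35.3% of Egfl7 TPM in replicate 1 and 37.6% in replicate 2 in the first quantification, but 3.00% and 2.60% in the second. The start at 26581056 held 1.77% in replicate 1 and 1.08% in replicate 2 in the first quantification and 30.2% and 29.5% in the second. The 26586630 to 26586689 starts were at 0 in the first and held 23.3% in replicate 1 and 28.2% in replicate 2 in the second.

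For Erg, transcripts that start at 95459245 to 95459348 held 78.7% in replicate 1 and 80.1% in replicate 2 in the first quantification, led by Erg-207, and 18.9% and 14.8% in the second. The outermost start, 95586593, was at 0 in the first and held 47.3% in replicate 1 and 36.9% in replicate 2 in the second, all of it on Erg-206. The start at 95530365 held 5.04% in replicate 1 and 8.98% in replicate 2 in the first, and 23.3% and 34.7% in the second. The gene sums hardly moved, at 12.8 and 11.9 TPM in the first and 13.7 and 13.1 TPM in the second for replicates 1 and 2. Which of the placements holds was not tested.

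**Figure D4:**
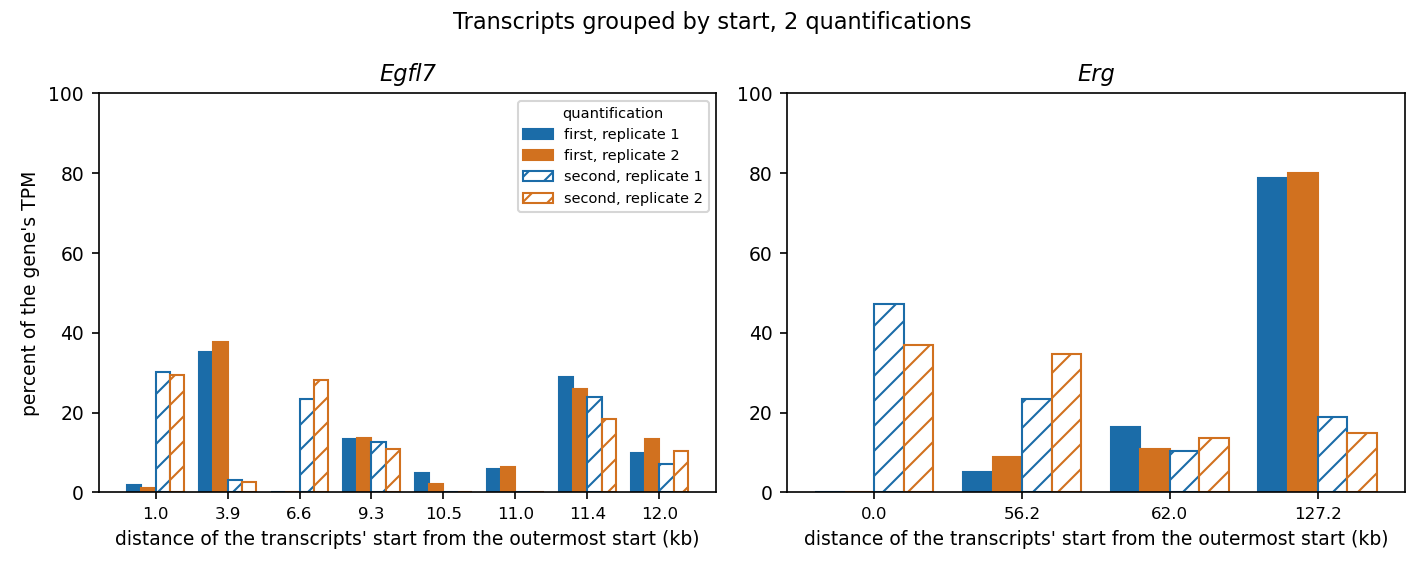
Percent of the TPM of Egfl7 (left) and Erg (right) held by transcripts grouped by start, along the gene as distance in kb from the outermost annotated start, for each heart (blue replicate 1, orange replicate 2) and quantification (filled first, hatched second). At the starts named in the text the quantifications differ more than the hearts, as at the outermost Erg start with 0 in the first and 47.3% and 36.9% in the second. The hearts differ too in the second quantification of Erg, with 23.3% in replicate 1 and 34.7% in replicate 2 at the start 95530365.

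All 10 genes had a higher mean TPM in the second quantification, from 1.02-fold for Aqp1 to 1.86-fold for Cdh5. In Cdh5, Esam and Pecam1, chosen here after their values were seen, short transcripts held more TPM there than in the first. Cdh5 had 106 TPM in replicate 1 and 107 TPM in replicate 2 there, 1.86-fold its mean in the first, against a median of 1.17-fold over the 11173 nuclear protein-coding genes with a mean TPM of 1 or more. Cdh5-202, a transcript of 346 nt, had 43.4 TPM in replicate 1 and 43.8 TPM in replicate 2 on 121 and 118 estimated counts, while Cdh5-201 had 7884 and 7979. In the first quantification Cdh5-202 had 0 and 2.19 TPM. For Esam, 1.53-fold higher in the second quantification, the 415-nt transcript Esam-204 had 11.7 TPM in replicate 1 and 10.4 TPM in replicate 2. The retained-intron transcript Pecam1-206 had 11.7 TPM in replicate 1 and 10.2 TPM in replicate 2 there, against 0.31 and 0.33 TPM in the first.

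Emcn and Pecam1 show how the coding transcripts were shared. Emcn-201 held 60.7% in replicate 1 and 59.2% in replicate 2, with 61.8% and 59.7% in the second quantification, so this gene's transcripts did not depend on the quantification. Pecam1-203 and Pecam1-202, annotated with 14 and 15 exons, held 34.4% and 31.5% in replicate 1 and 33.4% and 30.65% in replicate 2 in the first quantification, whereas the second put Pecam1-204 first at 39.4% in replicate 1 and 36.7% in replicate 2.

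Of the genes that overlap the 10 in the annotation, Agpat2 had many reads and the others few. Gm29682, antisense to the start of Cdh5, had 0 counts in both hearts. Gm20532, on the strand of Egfl7, had 0 counts in the first quantification and 19.1 and 20.2 estimated counts in replicates 1 and 2 in the second. Agpat2, a gene of lipid synthesis that shares 64 nt with the 3′ end of Egfl7 on the other strand, had 1239 counts in replicate 1 and 1111 in replicate 2.

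Within their protein families the 10 genes differed in rank. Cldn5 was first of 23 claudins with 54.8% ± 2.77 of their TPM (SD, n = 2), and Cldn12 followed at 5.99 TPM in replicate 1 and 7.0 TPM in replicate 2. Cldn15 (3.48 and 3.6 TPM) and Cldn34c1 (1.49 and 1.45 TPM) also reached 1 TPM in both, and 8 claudins had 0 counts in both hearts. Aqp1 held 92.3% ± 2.43 of the TPM of 12 aquaporins. Aqp7, a channel for water and glycerol, came next at 11.4 TPM in replicate 1 and 18.1 TPM in replicate 2, and Aqp8 (1.93 and 2.02 TPM) and Aqp4 (1.37 and 1.30 TPM) followed.

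In the first quantification Cdh5 was the third of 13 cadherins with 26.2% ± 1.16 of their TPM (SD, n = 2). The second quantification placed it above the others, at a mean of 106 TPM against 96.4 TPM for Cdh2 and 67.4 TPM for Cdh13. That lead rested on the 346-nt transcript Cdh5-202, with 43.4 TPM in replicate 1 and 43.8 TPM in replicate 2 on 121 and 118 estimated counts. Cdh5-201 alone, at 62.5 and 63.2 TPM there, lay below the means of Cdh2 and Cdh13. Above Cdh5 in the first lay Cdh2, the N-cadherin of heart muscle junctions, at 85.95 TPM in replicate 1 and 83.45 TPM in replicate 2. Cdh13, or T-cadherin, lay above it too, at 68.5 and 67.3 TPM. Cdh11 (5.73 and 4.30 TPM), Cdh16 (1.33 and 1.15 TPM) and Cdh19 (1.09 and 1.24 TPM) were the other cadherins at 1 TPM in both hearts.

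Erg was the seventh of 26 ETS genes with 5.97% of their TPM, close to its nearest relative Fli1 at 10.1 TPM in replicate 1 and 10.6 TPM in replicate 2. The genes above it were Elk4 (33.7 and 33.9 TPM), Ets2 (24.9 and 40.05 TPM, log2 ratio -0.49), Ets1 (22.4 and 24.1 TPM), Elf2 (22.8 and 19.8 TPM), Elk3 (16.5 and 19.7 TPM) and Gabpa (13.6 and 13.7 TPM). A further 9 ETS genes, namely Erf, Etv3, Elf1, Etv6, Etv5, Elk1, Etv1, Elf4 and Spi1, reached 1 TPM in both hearts at lower levels than Fli1. Of the sialomucins related to Emcn, 3 were more abundant than it, with Cd164 at 52.9 TPM in replicate 1 and 53.2 TPM in replicate 2, Cd34 at 40.2 and 37.55 TPM, and Podxl at 28.04 and 33.5 TPM, while Podxl2 lay below it at 6.28 and 5.04 TPM.

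Other endothelial genes were present alongside the 10. All 32 further genes of general endothelial use reached 1 TPM in both hearts, with a median log2 ratio of -0.0034 and 16 higher in each heart. The 3 most abundant were the adhesion receptor Adgrf5 (95.2 TPM in replicate 1 and 104 TPM in replicate 2), the TGF-beta co-receptor endoglin Eng (46.85 and 50.35 TPM) and Vwf (38.9 and 39.4 TPM), which encodes von Willebrand factor. Klf2, a transcription factor induced by blood flow in endothelium, was the 1 gene of the 32 past 2-fold, at 37.5 TPM in replicate 1 and 15.6 TPM in replicate 2, a log2 ratio of 1.31 (1.19 to 1.42). At a mean count of 50 or more, 1.28% of all genes were that far apart in either direction.

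Cd36 and Fabp4, of the capillary list, had the highest mean TPM among the genes of the endothelial lists, although whole heart tissue does not show which cells made this RNA. Cd36, a fatty acid transporter that muscle cells express too, had 648 TPM in replicate 1 and 769 TPM in replicate 2. Fabp4, a fatty acid binding protein of capillary endothelium and fat cells, had 382 and 349 TPM, and caveolin gene Cav1 had 108 and 105 TPM. All 13 capillary genes reached 1 TPM in both hearts, with a median log2 ratio of -0.12, and 2 were 2-fold higher in replicate 1, Rgcc (42.3 and 20.2 TPM) and Kcna5 (10.3 and 5.12 TPM). Over all genes with a mean count of 50 or more, 1.28% were 2-fold or more apart in either direction.

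Genes of arterial endothelium reached 1 TPM in both hearts in 11 of 12 cases, led by Fbln5, Efnb2 and Mecom, with a median log2 ratio of -0.046, although Sox17, the arterial SOXF factor, was higher in replicate 1. Venous genes did so in 5 of 7 cases (median 0.15, led by Bgn, Vwf and Ephb4), endocardial genes in 7 of 8 (median 0.15, led by Cpe, Vwf and Cgnl1) and lymphatic genes in 7 of 7 (median 0.073, led by Ccl21a, Lyve1 and Prox1). Vwf stands in the general, venous and endocardial lists alike. Whole heart tissue does not show which cells made the RNA of these genes, so their levels need not come from the vessel type named. Of 8 genes of brain and sinusoid endothelium 2 reached 1 TPM, Stab1 and Slc2a1, both also made by other cells. Junction partners of the adhesion genes reached it in 15 of 18 cases, with the catenins Ctnna1 and Ctnnb1 and plakoglobin Jup highest and a median log2 ratio of 0.021. None of the genes in these 5 vessel lists and the junction list that had a mean count of 50 or more was 2-fold apart.

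Markers of other cell types moved with the hearts, and their part in the ratios of the 10 genes was not tested. For scale, 1.28% of all genes with a mean count of 50 or more were 2-fold or more apart in either direction. Erythroid markers, which bear on Aqp1, summed to 20330 TPM in replicate 1 and 9337 TPM in replicate 2, and 6 of the 12, Hbb-bs, Hbb-bt, Hba-a1, Hba-a2, Alas2 and Slc4a1, were 2-fold or more higher in replicate 1. Mesothelial and epicardial markers, which bear on Aqp1 too, summed to 29.8 TPM in replicate 1 and 21.65 TPM in replicate 2, with 8 of 8 higher in replicate 1 and none 2-fold. Platelet markers, which bear on Pecam1 and Esam, summed to 26.4 TPM in replicate 1 and 20.1 TPM in replicate 2, with Pf4 highest at 17.7 and 12.2 TPM, Ppbp even at 4.11 and 4.12 TPM and Gp1ba at 0.06 TPM in both. Of the 7 platelet markers with a mean count of 10 or more, 5 were higher in replicate 1 and 2 in replicate 2. Adipocyte markers summed to 76.2 TPM in replicate 1 and 8.59 TPM in replicate 2, and Ucp1, Cfd, Plin1, Cidec and Adipoq, 5 of the 7, were 2-fold or more higher in replicate 1.

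Fibroblast markers summed to 530 TPM in replicate 1 and 454 TPM in replicate 2 (median log2 ratio 0.28 over 8 genes), and all 10 cardiomyocyte markers were slightly higher in replicate 2 (median -0.0997). Pericyte and smooth muscle markers, which mark the cells around the vessels, had a median of 0.0089 over 11 genes. Macrophage markers had a median of 0.078 over 9 genes, with Cx3cr1 (0.63 TPM in replicate 1 and 2.01 TPM in replicate 2) and, at a mean count under 50, Fcgr1 (0.35 and 0.53 TPM) past 2-fold. Lung epithelial markers were near 0 at a summed 0.17 TPM in replicate 1 and 0.13 TPM in replicate 2. Neutrophil and lymphocyte markers summed to 5.07 and 1.56 TPM in replicate 1 and 3.83 and 3.31 TPM in replicate 2.

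**Figure D5:**
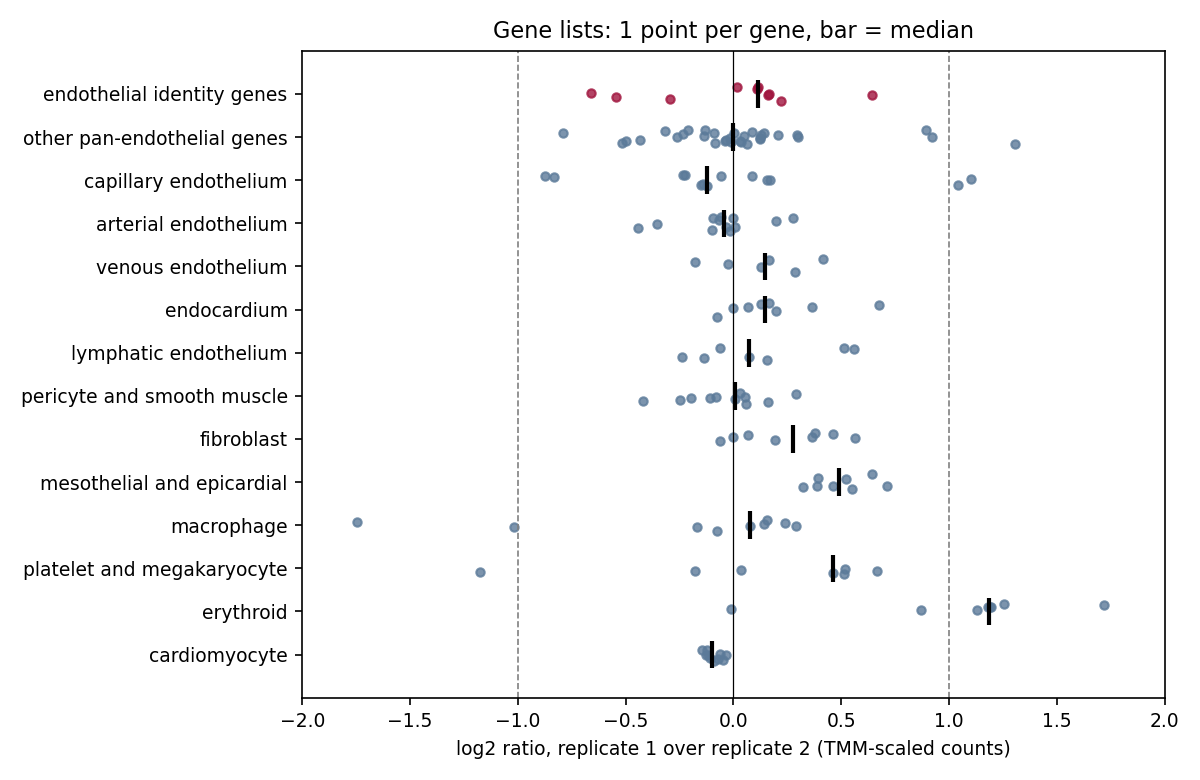
Log2 ratio of replicate 1 over replicate 2 for each gene with a mean count of 10 or more (points, spread vertically at random) and the median of each list (black bar), with dashed lines at 2-fold. In the upper 7 lists, all endothelial, 3 points lie past 2-fold (Klf2, Rgcc and Kcna5), and the erythroid median is 1.19.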

How the data were processed

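The authors deposited expected counts per gene and transcript in a first quantification, derived from transcriptome alignments on mm10 with GENCODE M21, per the sample notes. Deposited beside them, per the file headers, are TPM, FPKM and each transcript's percent of its gene. A second quantification, made, per the sample notes, directly from reads, was deposited as estimated counts and TPM per transcript, which were added up over each gene. Column names follow RSEM in the first and kallisto in the second; the sources used here do not give which tools were run. The effective length in the first is the length minus 99 nt. Hybrid reads were quantified on mm10, and any loss of CAST reads was not tested.

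Expected counts were rounded and scaled with TMM factors (edgeR 4.0.16, R 4.3.3) without spike-ins, with a prior count of 1 for log2 ratios. Differences were called by size, at a mean count of 50 or more and 2-fold; the script for ratios was checked on simulated data. Intervals cover counting error only: without molecular identifiers, reads can be copies of one molecule. Alternatives were other units, scalings (DESeq2 1.42.0 size factors, library totals, spike-in totals), filters, prior counts, the second quantification and each heart alone.

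The 10 genes, the 26 gene lists beside them and the tests were chosen with earlier results of these data known. Named are all 10 genes, of the endothelial lists the 3 most abundant and any 2-fold apart at that count, of other cell types' lists some of these, all family members at 1 TPM or more, and overlapping genes; others were chosen after their values were seen. Promoter and microRNA sequences are from RefSeq, GRCm38.p6, the build that mm10 names.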

Additional observations from a re-analysis of the deposited data

How the results depend on the processing

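The share of nuclear protein-coding TPM held by the 10 genes, 0.132%, became 0.161% when expected counts replaced TPM and 0.125% when the second quantification did, and ranged from 0.132% to 0.133% over single hearts; without Aqp1, an alternative added after seeing the data, it was 0.0705%. The order of the genes kept a Spearman correlation across genes with the reported order of 0.988 in the second quantification, 0.927 by expected counts and 0.976 to 0.988 over single hearts. At 1.5-fold 2 genes were apart, and none was at 2-fold under any of the scalings, the second quantification or a count minimum of 10. The median log2 ratio ranged from 0.039 with spike-in totals to 0.113, and Cdh5, at -0.056 with spike-in totals and -0.0052 with library totals, was the 1 gene whose ratio changed sign under any scaling or in the second quantification. Of 50 single-gene ratios under these alternatives, 47 stayed within the gene's counting interval; the other 3 were those of Cdh5, Pecam1 (0.089) and Aqp1 (0.14) with spike-in totals. Mean levels of 7 genes moved by more than 1 SD in the second quantification. The Sox17 ratio without Sox17-208, also added after seeing the data, was -0.06. No paired analysis was possible because the labels give 1 group. With 2 hearts, whether any difference between them recurs in further animals was not testable.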

Other observations

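Several endothelial genes outside the 10 lay well apart between the hearts, in both directions. The sphingosine-1-phosphate receptor gene S1pr1 had 32.2 TPM in replicate 1 and 17.8 TPM in replicate 2, a log2 ratio of 0.89 (0.81 to 0.98), and Klf4, a relative of Klf2, had 19.5 TPM in replicate 1 and 10.96 TPM in replicate 2, a log2 ratio of 0.92 (0.81 to 1.03). In the other direction the apelin receptor gene Aplnr had 11.8 TPM in replicate 1 and 22.3 TPM in replicate 2 (log2 ratio -0.83), the capillary transcription factor gene Tcf15 had 9.81 TPM in replicate 1 and 18.5 TPM in replicate 2 (-0.87), and the VEGF receptor gene Kdr had 26.45 TPM in replicate 1 and 36.9 TPM in replicate 2 (-0.43). The receptor genes Tie1 (29.4 TPM in replicate 1 and 30.1 TPM in replicate 2) and Tek (15.8 TPM in both) hardly differed. These genes were chosen after their values were seen, and no test across 2 hearts of 1 group is available for them. Aplnr and Tcf15 came from the capillary list, with a median log2 ratio of -0.12, and the others from the general endothelial list, with a median of -0.0034.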
